A study of Mus musculus with 6 samples.

Results

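Genes of insulin signalling and glucose transport were examined in RNA-Seq of inguinal white adipose tissue (iWAT), the subcutaneous fat depot of the mouse flank. The set has 10 genes: *Igf1*, *Insr*, *Igf1r*, *Irs1*, *Irs2*, *Pik3r1*, *Akt2*, *Tbc1d4*, *Slc2a4* and *Slc2a1*. They were found by symbol among the 19509 symbols of the count table, and the row with the highest total over the 6 libraries stood for a symbol with several rows. A row was found for 9 of the 10, and *Pik3r1* was not analysed here. Of these 9, 6 passed the filter on low counts and were tested, 2 were listed at 0 in every library and 1 had too few counts.

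The mice were on a C57BL/6 background and all were fed a Western diet for 12 weeks. The 3 libraries labelled *Lexis*-AdWT came from *Lexis* fl/fl mice without Cre, littermates of the others, and the 3 labelled *Lexis*-AdKO from *Lexis* fl/fl mice that carried adiponectin-Cre (Adipoq-cre). *Lexis* is a long noncoding RNA. The promoter of the adiponectin gene drives Cre in adipocytes, so that the other cells of the depot keep the floxed allele intact, and both groups carry that allele. The study describes the libraries as 3 biological replicates of each group.

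Insulin and IGF-1 act through closely related receptor tyrosine kinases, which phosphorylate the insulin receptor substrates. These recruit PI3-kinase, which activates AKT, and AKT phosphorylates the RabGAP TBC1D4 (AS160), so that vesicles carrying the glucose transporter GLUT4 move to the cell surface. In fat this path drives glucose uptake and triglyceride storage and restrains lipolysis, and much of its control lies in phosphorylation and traffic, which RNA levels do not measure.

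The total count ranged from 14470542 to 17882713 per library, and all values below come from the deposited raw read counts, scaled by edgeR's TMM method to counts per 1000000 (CPM). All 16 RNA FISH probes that the study lists for *Lexis* were searched on chromosome 4 of NCBIM37 (mm9), and 9 had an exact match, each inside the lincRNA gene *4930412L05Rik* (53217938 to 53230729, minus strand). Its count was 8, 9 and 8 in the AdWT-labelled libraries and 21, 11 and 13 in the AdKO-labelled ones, which goes against the labels in direction (log2 fold change 0.87, standard error 0.381, adjusted *p* = 0.851). One count is given for the whole gene, so that deleted and kept exons cannot be told apart, and the names AdWT and AdKO stand here for the labels only. Every direction below is that of the AdKO-labelled libraries against the AdWT-labelled ones. The adipocyte markers, summed over the 6 of 9 with a row, lay between 46216 and 54686 CPM in the AdWT-labelled libraries and between 41403 and 42072 CPM in the AdKO-labelled ones. These sums did not overlap between the groups. *Fabp4*, a fatty acid binding protein that made up most of the sum, and *Lep*, which encodes leptin, had every AdKO-labelled library below every AdWT-labelled one (log2 fold changes -0.23 and -0.46, with unadjusted *p* of 0.126 and 0.0221 and adjusted *p* of 0.853 and 0.851), while the groups overlapped for *Adipoq* (4677 to 7582 CPM), *Plin1*, *Lipe* and *Pparg*.

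None of the tested members differed between the groups beyond the spread between replicates. Of the 6 tested, 2 had a log2 fold change above 0 (*Irs1* and *Slc2a1*) and 4 below 0 (*Igf1r*, *Irs2*, *Akt2* and *Slc2a4*), with a median of -0.10, beside a median of 0.01 over all 9872 rows tested. With edgeR's quasi-likelihood test, 0 of the 6 had a Benjamini-Hochberg adjusted *p* under 0.05, and the share over all rows tested was 0%. At an unadjusted *p* under 0.05 the count was again 0 of 6, beside 5.73% of all rows, and DESeq2 gave 0 of 6 at either threshold. In none of the 6 did the groups separate, where 6.16% of all rows had every library labelled AdKO above every library labelled AdWT and 5.72% had the opposite. The smallest unadjusted *p* of a member, 0.174, belonged to *Akt2*, and 20.1% of all rows tested had a *p* as small or smaller. These values do not show that the levels were alike in both groups, and the intervals given with each gene say how large a difference the data leave room for.

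**Figure D1:**
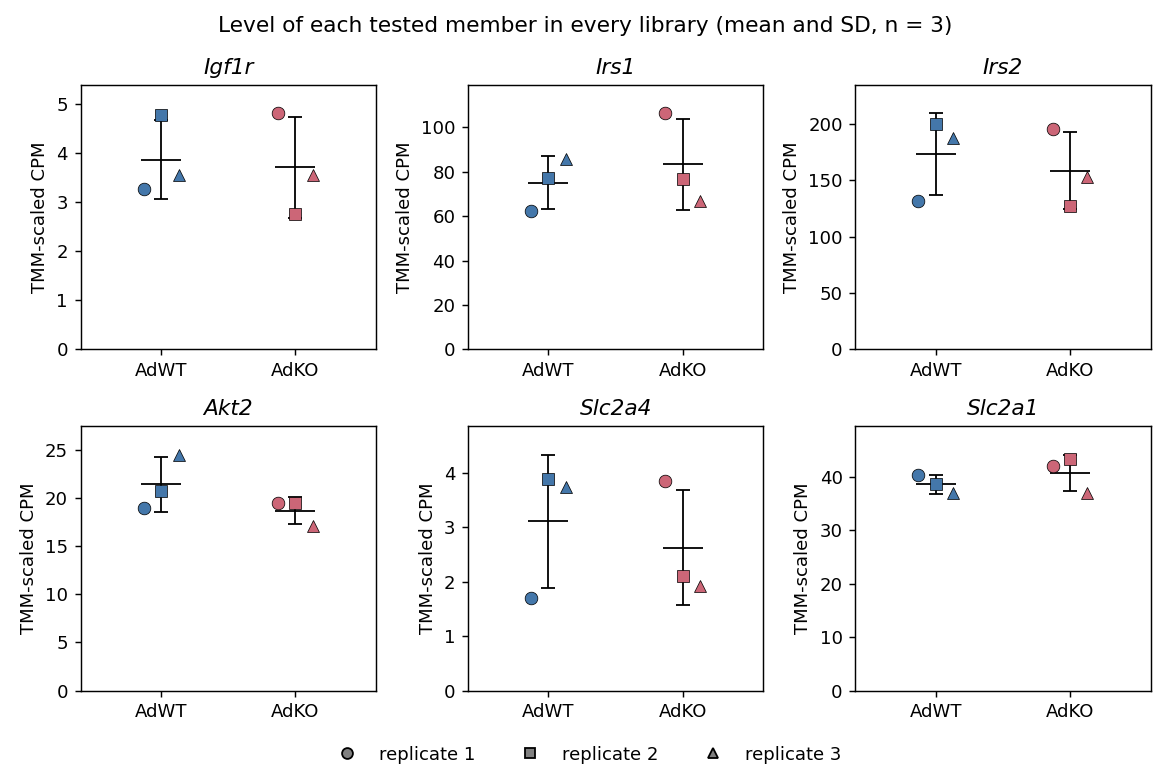
Level of the 6 tested members in TMM-scaled CPM (vertical axes, starting at 0) in the 3 libraries labelled AdWT and the 3 labelled AdKO. Points are libraries, with 1 marker shape per replicate number, and bars are the mean and SD (n = 3). The groups overlap in every panel, and *Slc2a1* has the narrowest spread for its level, from 36.9 to 43.3 CPM.

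*Igf1* encodes the growth factor IGF-1, which fat makes as well as liver. The gene (ENSMUSG00000020053.11) lies on chromosome 10 of NCBIM37 from 87321010 to 87399792 on the plus strand. Both of its rows were listed at 0 in all 6 libraries. *Insr*, the insulin receptor (ENSMUSG00000005534.8, chromosome 8, 3150922 to 3279617, minus strand), was likewise listed at 0 in every library in each of its 3 rows. The upper limit for a count of 0 is taken as 3 counts, a one-sided 95% limit, equal to 0.179 to 0.206 CPM at these depths. It covers counting error only, and the Poisson intervals given below for other counts are two-sided.

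These zeros cannot be read as missing RNA. Genes that nearly every cell uses were also at or near 0 in the same table: summed over all their rows and the 6 libraries, *Akt1* had 10 counts, *Rab14* 12, *Snap23* 7, *Rac1* 46, *Acly* 40 and *Tsc2* 0. Of the rows whose symbol has 2 or more rows, 53.6% were at 0 in every library, against 31.8% of the rows whose symbol has only 1. Counted by symbol, with the highest row standing for it, the shares ran the other way, 20.1% of the 8694 symbols with 2 or more rows against 31.8% of the 10815 with 1. The counting tool, its annotation and its treatment of reads shared by several rows are not given in the sources used here. *Tsc2* has a single row, so that having 1 row does not make a level safe from this limit. Levels are compared between genes only for *Irs1*, *Irs2* and *Slc2a1*, whose counts are not split over rows, and for the others only the comparison of the same row between libraries is given.

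*Igf1r*, the IGF-1 receptor, was the only one of the member receptors with counts. It lies on chromosome 7 from 75097713 to 75371484 on the plus strand (ENSMUSG00000005533.8), and 2 of its 3 rows were at 0. Its count was 50, 80 and 53 in the AdWT-labelled libraries and 70, 42 and 59 in the AdKO-labelled ones. The highest library of each group, AdWT 2 and AdKO 1, stood at nearly the same level, 4.78 and 4.81 CPM, and the groups overlapped. The means were 3.87 ± 0.805 CPM (SD, n = 3) in AdWT and 3.71 ± 1.03 CPM (SD, n = 3) in AdKO. On the log2 scale AdKO differed from AdWT by -0.06 (standard error 0.261, 95% interval -0.67 to 0.55, adjusted *p* = 0.973), so that an AdKO level from 0.627 to 1.46 times that of AdWT lies inside the interval. Its sign turned when AdWT 2 or AdKO 2 was left out, to 0.12 and 0.10.

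*Irs1* and *Irs2* encode the insulin receptor substrates, the docking proteins that carry the signal from the receptor to PI3-kinase. *Irs1* (ENSMUSG00000055980.2, chromosome 1, 82229676 to 82287991, minus strand) had 956, 1292 and 1281 counts in the AdWT-labelled libraries and 1547, 1168 and 1115 in the AdKO-labelled ones. AdKO 1 stood above all the others, at 106 CPM, and the other 5 libraries lay between 62.6 and 85.7 CPM. The mean was 75.2 ± 11.7 CPM (SD, n = 3) in AdWT and 83.4 ± 20.5 CPM (SD, n = 3) in AdKO. The log2 fold change of 0.15 (standard error 0.186, 95% interval -0.29 to 0.59, adjusted *p* = 0.894) was -0.06 without AdKO 1. In fold terms the interval runs from 0.821 to 1.50.

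*Irs2* (ENSMUSG00000038894.6, chromosome 8, 10986980 to 11008458, minus strand) had 2017, 3346 and 2809 counts in the AdWT-labelled libraries and 2840, 1935 and 2550 in the AdKO-labelled ones. AdWT 2, AdKO 1 and AdWT 3 were high, at 200.02, 195 and 188 CPM, and AdWT 1 and AdKO 2 were low, at 132 and 127 CPM, so that each group held both high and low libraries. The mean was 173 ± 36.3 CPM (SD, n = 3) in AdWT and 159 ± 34.2 CPM (SD, n = 3) in AdKO. The difference was -0.13 on the log2 scale (standard error 0.196, 95% interval -0.59 to 0.33, adjusted *p* = 0.913), and it was 0.0003 without AdKO 2. Annotated genes on the opposite strand overlap both substrates, *Gm9747* at *Irs1* and *9530052E02Rik* at *Irs2*. The library kit was stranded, but the strand setting of the counting is not given in the sources used here, so reads of these partners may be included.

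Because the substrates act side by side, their balance was taken as a count ratio within each library, which does not depend on the scaling. The *Irs1* count was 0.474, 0.386 and 0.456 of the *Irs2* count in the AdWT-labelled libraries and 0.545, 0.604 and 0.437 of it in the AdKO-labelled ones. The ratio was highest in AdKO 2 and AdKO 1, while AdKO 3 lay inside the AdWT range. The difference of the log2 ratios was 0.26 (-0.93 ± 0.238 in AdKO against -1.19 ± 0.157 in AdWT, SD, n = 3, two-sided exact permutation test *p* = 0.3, adjusted *p* = 0.6 over the 2 ratios computed). The smallest *p* that 3 libraries against 3 allow is 0.1.

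**Figure D2:**
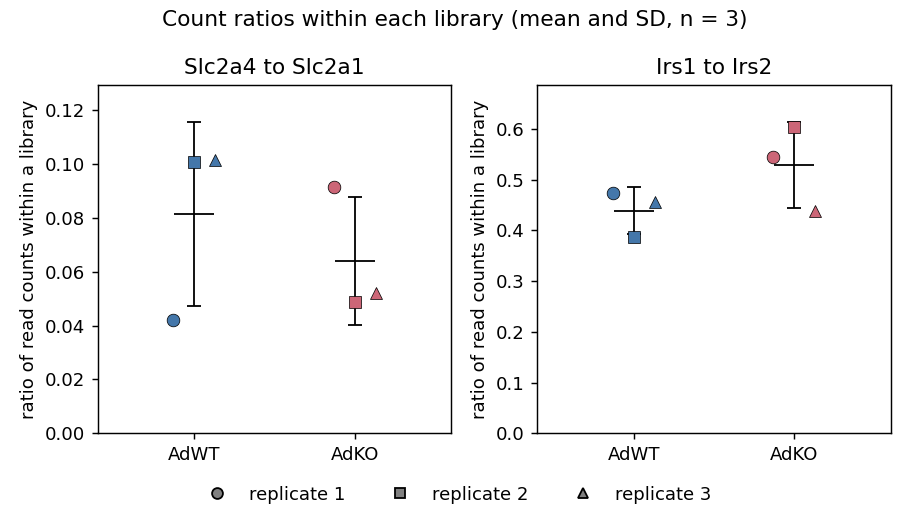
Ratio of *Slc2a4* to *Slc2a1* counts and of *Irs1* to *Irs2* counts within each library (vertical axes, starting at 0). Points are libraries, with 1 marker shape per replicate number, and bars are the mean and SD (n = 3). Both ratios overlap between the groups, and the *Slc2a4* to *Slc2a1* ratio falls into a high set (0.0915 to 0.102) and a low set (0.0421 to 0.0521) of 3 libraries each, with both sets holding libraries of both labels.

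*Akt2* encodes the AKT isoform that insulin-stimulated glucose uptake depends on most in fat and muscle. It lies on chromosome 7 from 28376571 to 28425845 on the plus strand (ENSMUSG00000004056.8), and it was the only member with 3 rows that all passed the filter. The row with the highest total had 289, 347 and 366 counts in the AdWT-labelled libraries and 283, 296 and 284 in the AdKO-labelled ones. AdWT 3 was the highest, at 24.5 CPM, and AdKO 3 the lowest, at 17.1 CPM, and AdWT 1 (18.9 CPM) lay below 2 of the AdKO-labelled libraries. The mean was 21.4 ± 2.84 CPM (SD, n = 3) in AdWT and 18.7 ± 1.39 CPM (SD, n = 3) in AdKO. That gave -0.20 on the log2 scale (standard error 0.130, 95% interval -0.50 to 0.11, adjusted *p* = 0.853).

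The other rows of *Akt2* also had a log2 fold change below 0, -0.17 (95% interval -0.53 to 0.20) in the row with 1181 counts in all and -0.48 (95% interval -1.54 to 0.58) in that with 82. The rows belong to 1 gene and are not independent of each other. The first row held between 55.9% and 63.9% of the *Akt2* count of a library, the highest share in AdKO 1 and the lowest in AdKO 3, so that the range of 1 group covered that of the other. Leaving out any single library kept the first row below 0, between -0.28 and -0.10.

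*Tbc1d4*, the RabGAP that holds GLUT4 vesicles back until AKT phosphorylates it (ENSMUSG00000033083.9, chromosome 14, 101841577 to 102008408, minus strand), has 7 rows, of which 5 were at 0. The highest had 2, 1 and 1 counts in the AdWT-labelled libraries and the same numbers in the AdKO-labelled ones, and another had 1, 1 and 3 against 0, 0 and 2. At this depth no difference in *Tbc1d4* could be seen in either direction, since a count of 2 has an exact 95% Poisson interval of 0.242 to 7.22.

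**Figure D3:**
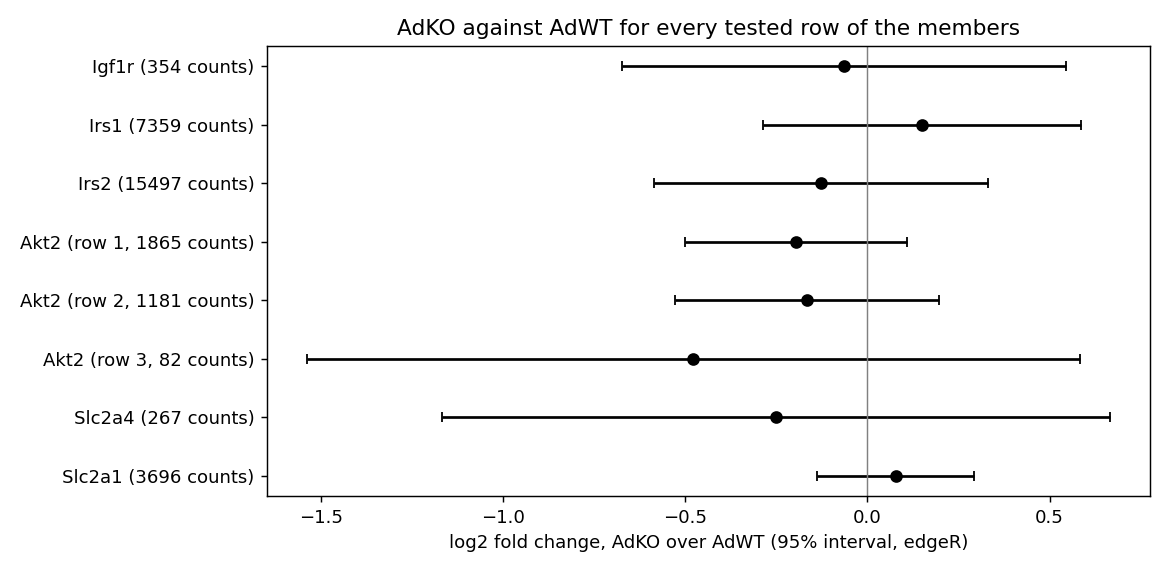
Log2 fold change (horizontal axis) of each tested row of the members, libraries labelled AdKO over the AdWT-labelled ones, with the 95% interval of edgeR's quasi-likelihood fit as bars. Every interval includes 0, and the widths run from *Slc2a1* (-0.14 to 0.29) to the *Akt2* row with 82 counts (-1.54 to 0.58).

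*Slc2a4* encodes GLUT4, the transporter that insulin brings to the surface of adipocytes and muscle fibres. The gene (ENSMUSG00000018566.7) lies on chromosome 11 from 69756045 to 69761690 on the minus strand, and 2 of its 3 rows were at 0. The remaining row had 26, 65 and 56 counts in the AdWT-labelled libraries and 56, 32 and 32 in the AdKO-labelled ones. AdWT 2, AdKO 1 and AdWT 3 formed a high set (3.89, 3.85 and 3.75 CPM) and AdKO 2, AdKO 3 and AdWT 1 a low set (2.11, 1.92 and 1.70 CPM). The exact 95% Poisson interval, which covers counting error only, was 16.98 to 38.1 for the lowest count and 50.2 to 82.8 for the highest, and variation between animals comes on top of it.

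The high and low libraries of *Slc2a4* did not follow the labels. The mean was 3.11 ± 1.22 CPM (SD, n = 3) in AdWT and 2.63 ± 1.06 CPM (SD, n = 3) in AdKO, coefficients of variation of 39.3% and 40.5%. Its fold change, on the log2 scale, was -0.25 (standard error 0.392, 95% interval -1.17 to 0.67, adjusted *p* = 0.913), which leaves room for an AdKO level between 0.445 and 1.59 times that of AdWT. Without AdKO 1 it was -0.63 and without AdWT 2 it was -0.06, below 0 in both cases. In whole tissue, fewer cells of a type and less RNA per cell cannot be told apart.

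Muscle fibres also express *Slc2a4*, and markers of skeletal muscle fibres differed between the libraries. Of the 15 markers listed, 11 had a row, 2 of these (*Myh4* and *Tnnt3*) were at 0 in every library and 7 were tested, each lower in AdKO at an unadjusted *p* under 0.05, beside 5.73% of all rows in either direction, and 0 of the 7 had an adjusted *p* under 0.05 (0.817 to 0.851). Summed over all 11 markers with a row, they stood at 39.3, 192 and 20.3 CPM in the AdWT-labelled libraries and at 7.42, 6.52 and 6.43 CPM in the AdKO-labelled ones. AdWT 2 was thus high in both, but AdKO 1 had as much *Slc2a4* as AdWT 2 with a muscle sum of 7.42 CPM, and AdWT 1 had the least *Slc2a4* with the second highest muscle sum. The part of muscle RNA in the *Slc2a4* count was not tested.

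*Slc2a1* encodes GLUT1, which carries glucose into most cells without needing insulin. The gene (ENSMUSG00000028645.4) lies on chromosome 4 from 118781316 to 118809935 on the plus strand and has 1 row. It had 617, 645 and 551 counts in the AdWT-labelled libraries and 612, 657 and 614 in the AdKO-labelled ones. All 6 libraries were close to each other, between 36.9 and 43.3 CPM, with AdKO 2 the highest and AdWT 3 the lowest. The mean was 38.6 ± 1.75 CPM (SD, n = 3) in AdWT and 40.7 ± 3.39 CPM (SD, n = 3) in AdKO, coefficients of variation of 4.54% and 8.32%.

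The log2 fold change of *Slc2a1*, 0.08 (standard error 0.0922, 95% interval -0.14 to 0.29, adjusted *p* = 0.889), had the narrowest interval of the 6 members tested, from 0.909 to 1.23 in fold terms. The highest library had 1.17 times the level of the lowest, where the same quotient for *Slc2a4* was 2.28. *Gm12867*, *Gm12868* and *Mir1957* overlap the gene in the annotation, the first 2 on the opposite strand, with the same limit as for the substrates.

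The count of *Slc2a4* was 0.0421, 0.101 and 0.102 of that of *Slc2a1* in the AdWT-labelled libraries and 0.0915, 0.0487 and 0.0521 of it in the AdKO-labelled ones. AdWT 1 went with AdKO 2 and AdKO 3, and AdKO 1 with AdWT 2 and AdWT 3. The log2 ratio was -3.71 ± 0.721 (SD, n = 3) in AdWT and -4.01 ± 0.494 (SD, n = 3) in AdKO, a difference of -0.30 (two-sided exact permutation test, *p* = 0.8, adjusted *p* = 0.8 over the 2 ratios computed). As rows of *Slc2a4* may be undercounted, the ratio says nothing of how much GLUT4 RNA there was for each GLUT1 RNA. A ratio of *Insr* to *Igf1r* could not be formed, because *Insr* was listed at 0.

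For the 3 members with a single row, and within the limit on undercounting above, the level per kilobase of annotated exon (TMM-scaled CPM divided by exon length) can be compared. *Irs2* stood at 43.1 ± 9.02 (SD, n = 3) in AdWT and 39.4 ± 8.50 in AdKO, *Slc2a1* at 13.5 ± 0.614 and 14.3 ± 1.19, and *Irs1* at 8.22 ± 1.28 and 9.12 ± 2.24. Over the 6 libraries the ranges were 31.7 to 49.7 for *Irs2*, 12.9 to 15.2 for *Slc2a1* and 6.84 to 11.6 for *Irs1*, and they did not overlap, so that the order *Irs2*, *Slc2a1*, *Irs1* held in each library. On this scale *Irs2* had the higher level of the substrates.

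Among the members, 4 of the 6 tested had the same 3 highest libraries, a set that the labels do not give. *Igf1r*, *Irs1*, *Irs2* and *Slc2a4* all had their 3 highest levels in AdWT 2, AdWT 3 and AdKO 1, an observation made after the values were seen. *Akt2* and *Slc2a1* did not. The third place was close for *Igf1r*, where AdWT 3 and AdKO 3 both stood at 3.55 CPM, and for *Irs1*, where AdWT 2 was at 77.2 and AdKO 2 at 76.9 CPM. The same 3 libraries were the highest in 810 of the 9872 rows tested (8.21%), *Adipoq* among them.

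The sums of macrophage markers were lowest in the same 3 libraries, and those of fibroblast markers ran opposite to *Slc2a4* only in part. Fibroblast and progenitor markers summed to 7501, 5758 and 3448 CPM in the AdWT-labelled libraries and to 5970, 10323 and 5670 CPM in the AdKO-labelled ones. Their lowest sum was thus in AdWT 3 and their highest sums were in AdKO 2 and AdWT 1, which were low in *Slc2a4* and *Irs2*. AdKO 3, also low in *Slc2a4*, had the second lowest sum. *Col3a1* made up most of each sum (7027, 5294 and 3200 CPM in AdWT, 5445, 9670 and 5221 CPM in AdKO). *Lum* was also highest in AdKO 2 (560 CPM). *Dpp4* (21.4 CPM) and *Pi16* (98.1 CPM) were instead highest in AdKO 1, which was high in *Slc2a4*. Macrophage markers summed to 1688, 1186 and 769 CPM in AdWT and to 1386, 1635 and 1772 CPM in AdKO, with the lowest 3 sums in AdWT 3, AdWT 2 and AdKO 1. Endothelial markers ran from 987 to 1460 CPM, lymph node markers from 9.97 to 25.4 CPM and epithelial markers from 0.894 to 48.0 CPM. The part of the cell mix in the levels of the members was not tested.

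**Figure D4:**
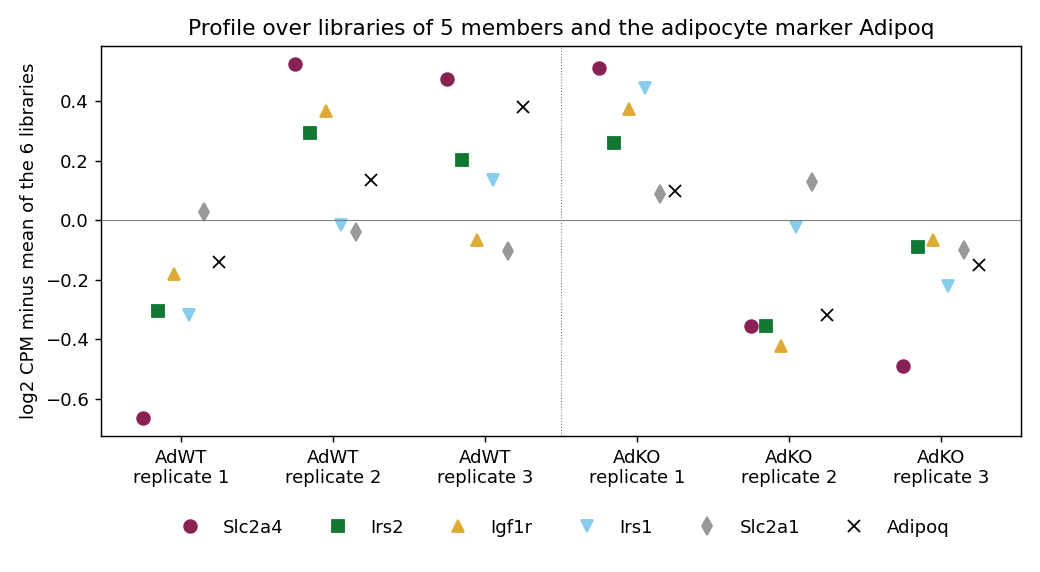
Log2 CPM of 5 members and of *Adipoq*, each minus its mean over the 6 libraries (vertical axis), in each library (horizontal axis, labelled AdWT on the left and AdKO on the right). *Slc2a4*, *Irs2*, *Igf1r* and *Irs1* have their 3 highest levels in AdWT 2, AdWT 3 and AdKO 1, while *Slc2a1* stays near 0 throughout.

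The rows most like *Slc2a4* over the 6 libraries, by the root mean square difference of centred log2 CPM with 0.5 added, were *Heg1* (0.111), *Amz2* (0.123) and *Chpt1* (0.149), where *Slc2a4* itself spanned 0.99 on that scale. Their counts were low, 11, 24 and 23 against 21, 12 and 12 for *Heg1*, 14, 31 and 31 against 27, 17 and 19 for *Amz2*, and 4, 12 and 11 against 10, 4 and 6 for *Chpt1*. For *Heg1* and *Chpt1* these are minor rows and do not stand for the gene: the row with the highest total had a mean of 183 CPM in AdWT and 153 CPM in AdKO for *Heg1*, and of 399 and 405 CPM for *Chpt1*, with log2 fold changes of -0.26 and 0.02. With so few counts in 6 libraries, the likeness describes single rows only. No such row was sought for *Igf1*, which was at 0.

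The wider pathway was described with 98 further genes in 6 lists, of which 79 had a row, 6 were at 0 in every library and 53 were tested. The log2 fold change was above 0 in 18 and below 0 in 35, with a median of -0.08, beside 0.01 over all rows tested. No test of direction was run on the lists. At an unadjusted *p* under 0.05 in edgeR's test 2 were higher and 3 lower, together 9.43% of those tested beside 5.73% of all rows, and 0 had an adjusted *p* under 0.05. The 5 are named below with their values, and none of them passed the adjusted test.

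**Figure D5:**
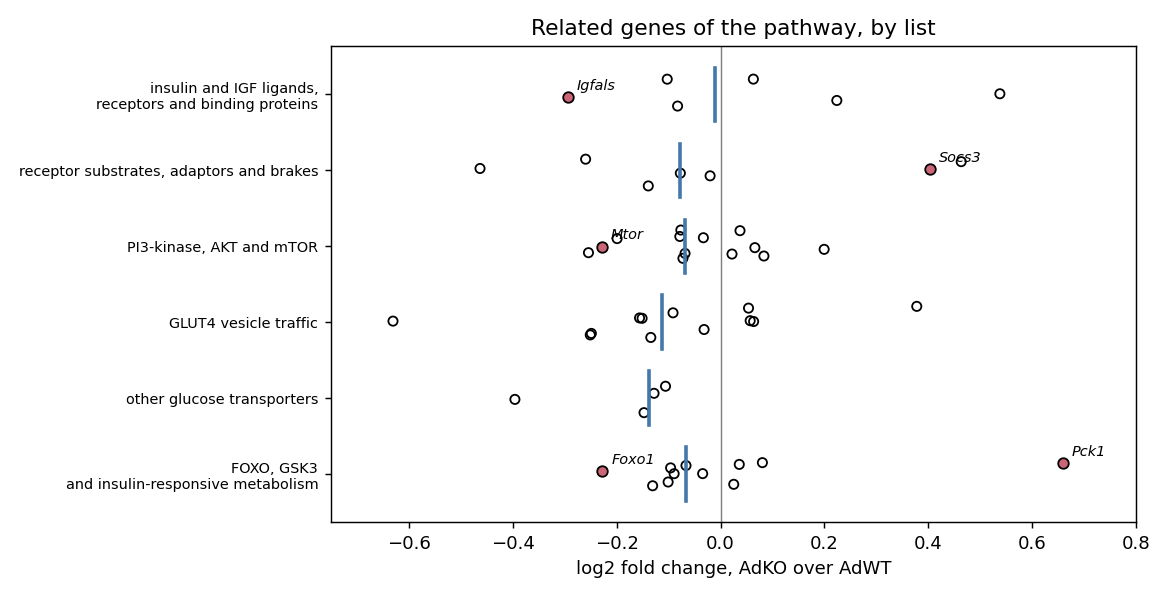
Log2 fold change (horizontal axis, libraries labelled AdKO over AdWT) of the 53 tested genes of the wider pathway in 6 lists (vertical axis). Open circles are genes, filled and named circles are the 5 genes with an unadjusted *p* under 0.05, and the vertical bar is the median of each list, which lies between -0.14 and -0.01.

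Of the ligands, receptors and binding proteins, 6 of the 13 listed were tested, 3 above 0 and 3 below 0, with a median of -0.01. *Igfals*, the acid-labile subunit that keeps IGF-1 in circulating complexes, had 367, 435 and 351 CPM in AdWT and 288, 364 and 289 CPM in AdKO. AdKO 2 overlapped with the AdWT range (log2 fold change -0.29, standard error 0.123, unadjusted *p* = 0.0466, adjusted *p* = 0.851). *Igf2*, a fetal growth factor, rested on few counts (0.54, standard error 0.332), and *Igfbp6*, which binds IGF-2, had a log2 fold change of 0.22 (standard error 0.126).

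Of the adaptors and brakes on the receptor, 7 of the 17 listed were tested, 2 above 0 and 5 below 0, with a median of -0.08. *Socs3*, a cytokine-induced inhibitor that also acts on the insulin receptor and its substrates, stood at 14.9, 12.6 and 11.1 CPM in AdWT and at 17.6, 18.8 and 14.6 CPM in AdKO. AdKO 3 lay just under AdWT 1, and the other libraries labelled AdKO were above all of AdWT (log2 fold change 0.40, standard error 0.158, unadjusted *p* = 0.0365, adjusted *p* = 0.851). The phosphatase gene *Ptprf* had a log2 fold change of -0.14 (standard error 0.0735).

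In the PI3-kinase, AKT and mTOR list, 13 of 24 genes were tested, 5 above 0 and 8 below 0, with a median of -0.07. *Mtor*, the kinase that couples insulin and nutrients to growth, had 271, 257 and 275 CPM in AdWT and 222, 237 and 226 CPM in AdKO. The groups did not overlap, and each varied little (log2 fold change -0.23, standard error 0.0644, unadjusted *p* = 0.00844, adjusted *p* = 0.847). *Pde3b*, the phosphodiesterase through which insulin restrains lipolysis, had a log2 fold change of -0.20 (standard error 0.126).

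None of the 12 tested genes of GLUT4 vesicle traffic, of 17 listed, reached an unadjusted *p* under 0.05, 4 being above 0 and 8 below 0 with a median of -0.11. *Ralgapa2*, a subunit of a RalGAP that insulin signalling inhibits, had -0.63 with a standard error of 0.433, *Tusc5*, an adipocyte protein of GLUT4 vesicles, -0.13 (standard error 0.104) and *Aspscr1*, the tether TUG, -0.16 (standard error 0.141). All 4 tested genes among the 11 listed as other glucose transporters, mostly by family name, were below 0, with a median of -0.14 and no unadjusted *p* under 0.05. These were *Slc2a3* (GLUT3, -0.40, standard error 0.366), *Slc2a8* (-0.15, standard error 0.266), *Slc2a12* (-0.13, standard error 0.158) and *Slc2a13* (-0.11, standard error 0.214).

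Of the genes that act downstream of AKT through FOXO and GSK3 or in insulin-responsive metabolism, 11 of 16 were tested, 4 above 0 and 7 below 0, with a median of -0.07. *Pck1*, the cytosolic PEPCK that fat uses to make glycerol 3-phosphate and that insulin represses, had 88.4, 106 and 92.1 CPM in AdWT and 189, 116 and 148 CPM in AdKO. All of AdKO lay above all of AdWT (log2 fold change 0.66, standard error 0.172, unadjusted *p* = 0.00579, adjusted *p* = 0.817, highest of 3 rows). *Foxo1*, the transcription factor that AKT keeps out of the nucleus, had 498, 540 and 598 CPM in AdWT and 470.2, 436 and 490.2 CPM in AdKO.

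The groups did not overlap for *Foxo1* either (log2 fold change -0.23, standard error 0.0904, unadjusted *p* = 0.0380, adjusted *p* = 0.851). Leaving out any single library put the log2 fold change of *Pck1* between 0.46 and 0.81 and that of *Mtor* between -0.26 and -0.21, with an unadjusted *p* under 0.05 each time. *Foxo1* (-0.29 to -0.17), *Socs3* (0.30 to 0.52) and *Igfals* (-0.42 to -0.20) kept their direction but not that threshold. All of these genes were picked by that threshold in the same libraries, so the refits are no independent test of them. *Gsk3a*, a kinase of glycogen synthase, also had non-overlapping groups, 124 to 125 against 131 to 133 CPM, a log2 fold change of only 0.08 (standard error 0.0566). *Hk2*, the hexokinase that traps glucose in insulin-sensitive cells, had -0.13 (standard error 0.0788).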

How the data were processed

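Stranded RNA-Seq libraries (KAPA kit) were made from iWAT after 12 weeks of Western diet. Reads were mapped by the authors to mm9 using HISAT2, and the deposited values are raw read counts, not normalized, in 37024 rows. The submitters' processing notes name DESeq2. The counting tool is not given in the sources used here. Libraries were grouped by their labels, 3 and 3.

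Rows were filtered with edgeR's filterByExpr by group, scaled by TMM and compared with glmQLFit and glmQLFTest (R 4.3.3, edgeR 4.0.16, limma 3.58.1), with Benjamini-Hochberg adjustment over all 9872 rows tested and a threshold of 0.05. Standard errors were taken from the size of the fold change and the F statistic. A separate test on simulated data with 200 changed genes checked the scripts. Exact permutation tests used log2 count ratios with 0.5 added. Exon lengths and coordinates came from GENCODE vM1 on NCBIM37. Figures and tables were made in Python 3.11.15. The replicates' spread sets the precision (common biological coefficient of variation 0.196).

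Genes were named by a rule: the 10 members, from each related list the 3 tested genes with the smallest unadjusted *p* and any under 0.05, the most abundant cell type markers, and the 3 rows most like *Slc2a4*. *Gsk3a* and *Slc2a13* were named after their values were seen. A few genes that the rule names are left out of the text. Members and lists were chosen with earlier results of these data known. Alternatives were DESeq2 1.42.0, RLE, upper quartile and library size scaling, other count filters, a block for the replicate number, summed rows per symbol, the longest transcript as length, and each library left out.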

Additional observations from a re-analysis of the deposited data

How the results depend on the processing

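None of the members passed an adjusted or an unadjusted *p* of 0.05 under any of these alternatives. Of 90 log2 fold changes of members computed under them, 86 kept their direction and 4 reversed, all with 1 library left out: *Igf1r* (0.12 without AdWT 2 and 0.10 without AdKO 2), *Irs1* (-0.063 without AdKO 1) and *Irs2* (0.00029 without AdKO 2). With each library left out, *Igf1r* ran from -0.29 to 0.12, *Irs1* from -0.06 to 0.29, *Irs2* from -0.30 to 0.0003, *Akt2* from -0.28 to -0.10, *Slc2a4* from -0.63 to -0.06 and *Slc2a1* from 0.03 to 0.15, and the log2 *Slc2a4* to *Slc2a1* ratio differed by -0.71 to -0.08 and that of *Irs1* to *Irs2* by 0.16 to 0.39. Other scaling, tests and filters kept *Slc2a4* between -0.27 and -0.19 and *Akt2* between -0.21 and -0.15. With its longest transcript as length *Slc2a1* stood at 15.2 in place of 13.9 per kilobase. An adjusted *p* under 0.05 was reached by 0 rows in edgeR, against 17 in DESeq2 with its defaults, 27 with its filter set for 0.05 (added after seeing the data), 1 when rows with 1 count or more in any library were kept, and 0 to 1 with each library left out (1 without AdKO 3). The number with an unadjusted *p* under 0.05, 566 in edgeR and 473 in DESeq2, went from 329 without AdWT 2 to 1208 without AdWT 1. The causes were not tested. The medians of the related lists moved with single libraries, that of the adaptors and brakes from -0.16 to 0.10.

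The libraries of both groups share replicate numbers. The deviations of same-numbered libraries correlated at -0.07, -0.14 and 0.32, and those of differently numbered ones at -0.33 to 0.39. Correlations from 3 libraries in each group cannot decide whether the numbers pair animals. With the replicate block 418 rows had an unadjusted *p* under 0.05 and 0 an adjusted one, and no member passed. Counts under 100 per library limit *Igf1r* and *Slc2a4*, and *Tbc1d4* could not be compared.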
